A study of Mus musculus with 4 samples.

Results

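The genes described here are the core parts of the 2 machineries by which a cell shows peptides to T cells. They were chosen by name: B2m, H2-K1, H2-D1, Tap1, Tap2 and Tapbp for class I of the major histocompatibility complex (MHC), and H2-Aa, H2-Ab1, H2-Eb1 and Cd74 for class II. Of these 10 genes, 9 had a row among the 21578 genes of the deposited tables, and all 9 had enough counts to be tested. H2-Aa (ENSMUSG00000036594), the alpha chain of the H2-A molecule, had no row, and no value is given for it.

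In MHC class I, a heavy chain pairs with beta-2-microglobulin and holds a peptide from the cytosol at the surface of nearly every nucleated cell, where CD8+ T cells read it. The peptide is pumped into the endoplasmic reticulum by the TAP transporter and placed in the groove with the help of tapasin. In MHC class II, an alpha and a beta chain travel with the invariant chain CD74 to the endosome, exchange it for a peptide from outside the cell and show that peptide to CD4+ T cells; dendritic cells, B cells and macrophages are known for it, while resting brain endothelium is known for class I.

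The study asked how loss of the receptor PD-1 (gene Pdcd1) from endothelial cells changes the developing brain. Endothelial cells were sorted from the brain of C57BL/6 mice at postnatal day 0 and their RNA was sequenced, with 2 libraries from Pd1fl/fl mice and 2 from Pd1cKO-Tie2 mice. Both genotypes carry the loxP-flanked Pd1 allele, and Pd1cKO-Tie2 mice also carry a Cre driven by Tie2, which is active in endothelial cells and, as the study's authors state, in hematopoietic and some myeloid cells too. The sort used antibodies to CD31 and CD45, and how many mice gave each library, or whether cells were cultured before extraction, was not given in the sources used here, so the spread between libraries may be partly technical.

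The libraries held between 13715837 and 24147311 counted reads. For a count of 0, a level of up to 3 expected reads was allowed, which is 0.126 to 0.220 CPM (counts scaled to a common library total) depending on the library. The fold limits given below for genes with 0 counts rest on this choice. The deleted gene itself did not check the labels, because Pdcd1 was counted 32 times in Pd1fl/fl replicate 1 and 0 times in the other 3 libraries. All 12 endothelial markers were present in every library, with a summed level of 15736 and 14961 CPM in Pd1fl/fl and of 19102 and 19951 CPM in Pd1cKO-Tie2. Each of the 12 lay above in both Pd1cKO-Tie2 libraries, as 17.7% of all tested genes did, and none passed the criterion of a 2-fold change with a p of 0.05 or less. Pd1fl/fl replicate 1 stood apart in neutrophil markers, which summed to 908 CPM there and to at most 55.4 CPM elsewhere. Microglia and macrophage markers, all 16 listed and with Csf1r and C1qa the most abundant, summed to 973 to 2920 CPM, and of them only Lyve1 was at 0 in a library (Pd1fl/fl replicate 2). Markers of pericytes summed to 3755 to 5746 CPM, of neurons to 638 to 960 CPM and of astroglia to 912 and 958 CPM in Pd1fl/fl and 634 and 534 CPM in Pd1cKO-Tie2. In such bulk RNA, fewer cells of a type and less RNA per cell cannot be told apart.

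The promoters of class I genes are known for a row of short elements that answer to interferon and NF-kB and to the factors shared with class II promoters. Promoter windows from RefSeq (GRCm38.p6), reaching 250 bases before and 50 bases after a start site, were held for 7 of the 10 genes in 8 windows. Each window was searched on both strands for CCAAT (the CCAAT box), AANNGAAA (the core of an interferon regulatory factor site), TGACG (the core of a cyclic AMP response element) and GGGANTNNC (an NF-kB type site). Among all 32851 promoter windows, CCAAT was found in 37.4%, AANNGAAA in 23.9%, TGACG in 20.8% and GGGANTNNC in 4599 windows. The 200 bases before the start site are shown for the 3 class I chains and for H2-Eb1. The first 3 hold every motif searched, and H2-Eb1, like Tapbp, holds only CCAAT. Capitals mark the motif matches.
B2m: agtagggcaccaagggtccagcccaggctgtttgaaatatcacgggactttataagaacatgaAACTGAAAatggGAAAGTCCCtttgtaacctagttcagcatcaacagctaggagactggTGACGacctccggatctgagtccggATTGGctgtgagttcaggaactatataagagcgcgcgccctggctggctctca
H2-K1: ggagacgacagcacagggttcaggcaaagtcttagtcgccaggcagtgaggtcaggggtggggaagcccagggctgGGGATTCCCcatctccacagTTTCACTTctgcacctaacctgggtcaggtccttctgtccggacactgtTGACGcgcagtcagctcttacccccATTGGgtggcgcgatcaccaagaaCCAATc
H2-D1: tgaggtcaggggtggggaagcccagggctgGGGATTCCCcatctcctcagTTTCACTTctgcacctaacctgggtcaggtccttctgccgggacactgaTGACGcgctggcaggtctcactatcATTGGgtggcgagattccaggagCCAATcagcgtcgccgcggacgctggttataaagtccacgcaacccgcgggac
H2-Eb1: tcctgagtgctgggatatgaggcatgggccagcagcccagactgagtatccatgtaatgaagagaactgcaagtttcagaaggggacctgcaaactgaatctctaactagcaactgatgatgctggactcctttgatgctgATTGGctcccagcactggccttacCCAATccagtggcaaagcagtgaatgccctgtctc
These are chr2:122147487-122147686 on the plus strand for B2m, chr17:34000334-34000533 on the minus strand for H2-K1, chr17:35262894-35263093 on the plus strand for H2-D1 and chr17:34305667-34305866 on the plus strand for H2-Eb1.

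The windows of B2m, H2-K1 and H2-D1 each held all 4 motifs. In B2m the interferon core began 137 bases before the start site, the NF-kB type site 125, TGACG 78 and the CCAAT box 53. H2-K1 and H2-D1 shared 1 order of motifs, in which the NF-kB type site came before the interferon core, unlike in B2m, and their windows shared an identical stretch of 47 bases. No 2 different motifs overlapped in these 3 windows. The H2-Aa window also held all 4 motifs, with overlapping TGACG matches on the 2 strands that began 74 and 71 bases before the start site. The H2-Eb1 window held CCAAT alone, at 59 and 35 bases before the start site. Tap1 held CCAAT and TGACG, and Tapbp held 2 CCAAT boxes. A match is a description of the letters and was not tied to binding or to any level reported here.

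**Figure D1:**
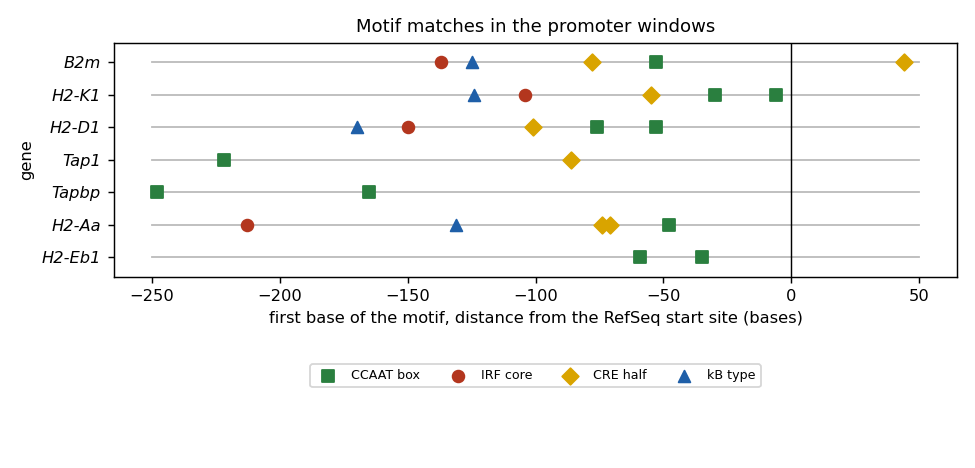
Distance of each motif match from the RefSeq start site, in bases, in the promoter windows of 7 MHC genes; symbols stand for the 4 motifs, and for H2-K1 the window of 1 of its 2 start sites is drawn. B2m, H2-K1, H2-D1 and H2-Aa hold all 4 motifs, and H2-Eb1 and Tapbp hold only CCAAT.

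Class I transcripts were found in every library, most of them abundant, and the class II beta chains H2-Ab1 and H2-Eb1 were scarce. Levels of different genes were compared per length, as CPM per kilobase of exon (RPKM), averaged over the 4 libraries. B2m, the light chain shared by all class I molecules, led with a mean level of 740 RPKM. H2-D1 followed with 97.2 RPKM, Tapbp with 76.7 RPKM, H2-K1 with 26.2 RPKM and Tap2 with 10.5 RPKM. The ranges of these neighbours over the libraries did not overlap. Cd74 at 7.34 RPKM and Tap1 at 3.51 RPKM came next, and their ranges over the libraries overlapped, as did those of Tap2 and Cd74. H2-Eb1 at 0.590 RPKM and H2-Ab1 at 0.492 RPKM closed the order, overlapped each other and lay below Tap1 in every library.

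**Figure D2:**
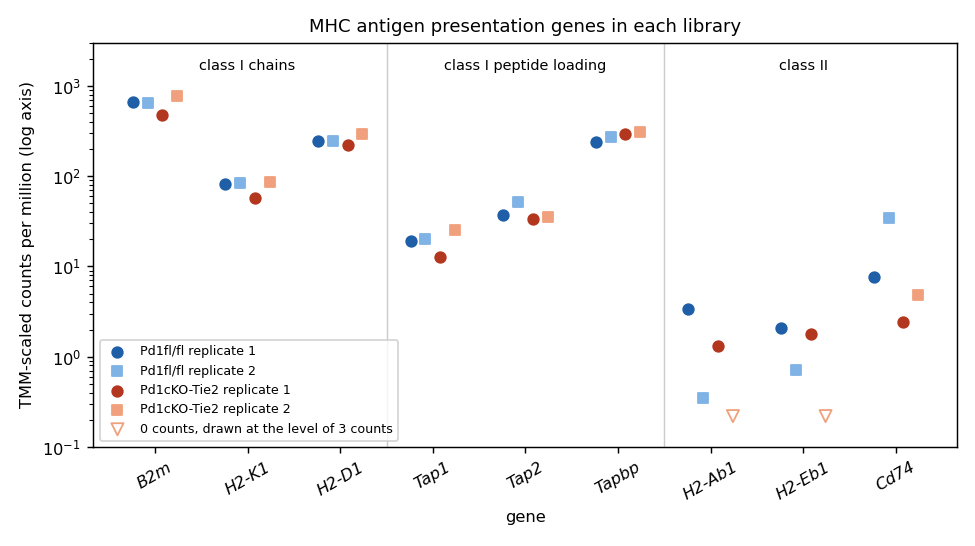
Level of each MHC gene in each library in TMM-scaled CPM on a log axis, with blue for Pd1fl/fl, red for Pd1cKO-Tie2, circles for replicate 1 and squares for replicate 2. The class I genes lie between 12.6 and 762 CPM in all libraries, while H2-Ab1 and H2-Eb1 have 0 counts in Pd1cKO-Tie2 replicate 2 (open triangles at the level of 3 counts).

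Between the genotypes, 1 of the 9 tested MHC genes passed the study's criterion of a 2-fold change with a p of 0.05 or less, namely Cd74, which was lower in Pd1cKO-Tie2. Of all 15909 tested genes, 640 passed it (4.02%), with 224 higher (1.41%) and 416 lower (2.61%). None of the 15909 genes reached an adjusted p under 0.05 in edgeR (0%), where 1016 had an unadjusted p under 0.05 (6.39%), while DESeq2 called 114 of 16976 genes at an adjusted p under 0.05 (0.672%) with no MHC gene of the 9 among them. The median log2 fold change of the 9 genes was -0.21, beside -0.0038 over all tested genes. The libraries of the genotypes did not overlap for 3 of the 9 genes, and for 35.8% of all tested genes. Tapbp lay above in both Pd1cKO-Tie2 libraries, as did 17.7% of all genes, and Tap2 and Cd74 lay below, as did 18.1% of all genes.

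The class I chains showed no change past the criterion. B2m (ENSMUSG00000060802, chr2:122147686-122153083) had TMM-scaled levels of 668 and 646 CPM in Pd1fl/fl and of 470 and 762 CPM in Pd1cKO-Tie2 replicates 1 and 2. The Pd1fl/fl libraries lay between the Pd1cKO-Tie2 libraries, and the log2 fold change was -0.09 (SE 0.24, adjusted p = 1.00 in edgeR). H2-K1 (ENSMUSG00000061232, chr17:33996017-34000333), a classical heavy chain, had 81.6 and 83.4 CPM in Pd1fl/fl and 57.3 and 85.7 CPM in Pd1cKO-Tie2. The groups overlapped here too, with a log2 fold change of -0.21 (SE 0.26, adjusted p = 1.00 in edgeR).

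H2-D1 (ENSMUSG00000073411, chr17:35262730-35267499), the other classical heavy chain, had 242 and 244 CPM in Pd1fl/fl and 222 and 295 CPM in Pd1cKO-Tie2. Its log2 fold change was 0.09 (SE 0.19, adjusted p = 1.00 in edgeR). In all 3 chains the Pd1fl/fl libraries lay close together and the Pd1cKO-Tie2 libraries far apart, with replicate 1 the lowest of the 4 libraries and replicate 2 the highest. The ratio of Pd1cKO-Tie2 replicate 1 to replicate 2 was 0.616 for B2m (upper end of the 95% interval 0.633, counting error only). It was 0.668 for H2-K1 (0.618 to 0.722) and 0.751 for H2-D1 (0.721 to 0.783), so the spread within this genotype was wider than counting error. Microglia and macrophage markers were also lowest in Pd1cKO-Tie2 replicate 1, at a summed 973 CPM against 2125 CPM in replicate 2, whereas endothelial markers summed to 19102 and 19951 CPM. Over all 4 libraries the orders differed. The class I chains were highest in Pd1cKO-Tie2 replicate 2, and the microglia and macrophage marker sum was highest in Pd1fl/fl replicate 2, at 2920 CPM. The part of microglia and macrophages in the class I levels was not tested.

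The proportion of H2-K1 to B2m was nearly the same in every library, and that of H2-D1 to H2-K1 was not. H2-K1 counts were 12.2%, 12.9%, 12.2% and 11.2% of the B2m counts in Pd1fl/fl replicates 1 and 2 and Pd1cKO-Tie2 replicates 1 and 2. The H2-K1 share therefore moved little while B2m itself differed 1.62-fold between the extreme libraries. In counts, without regard to length, H2-D1 had 2.96 and 2.92 times the H2-K1 counts in Pd1fl/fl and 3.87 and 3.44 times in Pd1cKO-Tie2. This ratio was higher in both Pd1cKO-Tie2 libraries and was not tested. Of the 50-base stretches in their transcripts, 9.63% of those of H2-K1 and 12.8% of those of H2-D1 also occur in other genes, mainly each other and the H2-Q genes, so reads there could not be assigned with certainty. Summed over the 3 chains, the level in Pd1cKO-Tie2 was 0.963 ± 0.284 times that in Pd1fl/fl (propagated SD, n = 2 per genotype).

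The genes for peptide transport and loading also stayed under the criterion. Tap1 (ENSMUSG00000037321, chr17:34187553-34197225) and Tap2 (ENSMUSG00000024339, chr17:34203527-34216321) encode the 2 subunits of the TAP transporter. Tap1 had 19.2 and 19.9 CPM in Pd1fl/fl and 12.6 and 25.1 CPM in Pd1cKO-Tie2, which overlapped in the same way as the chains, with a log2 fold change of -0.06 (SE 0.44, adjusted p = 1.00 in edgeR). Tap2 had 37.1 and 52.3 CPM in Pd1fl/fl and 33.8 and 35.0 CPM in Pd1cKO-Tie2. Both Pd1cKO-Tie2 libraries of Tap2 lay below, with a log2 fold change of -0.38 (SE 0.29, adjusted p = 0.979 in edgeR), and the Pd1fl/fl libraries differed more from each other than the lower of them did from Pd1cKO-Tie2. Tap1 and Tap2 did not follow each other across libraries, since Pd1cKO-Tie2 replicate 2 was the highest for Tap1 and among the lower libraries for Tap2.

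Tapbp (ENSMUSG00000024308, chr17:33915899-33929288) encodes tapasin, which bridges TAP and the empty class I molecule. It had 239 and 274 CPM in Pd1fl/fl and 296 and 305 CPM in Pd1cKO-Tie2. The 2 Pd1cKO-Tie2 values exceeded the 2 Pd1fl/fl values, and the log2 fold change was 0.23 (SE 0.15, adjusted p = 0.949 in edgeR). The summed level of Tap1, Tap2 and Tapbp in Pd1cKO-Tie2 was 1.10 ± 0.133 times that in Pd1fl/fl. In annotation, 212 exon bases of Tap1 overlap Psmb9 on the opposite strand, 698 of Tap2 overlap predicted genes on the opposite strand, and 904 of Tapbp overlap Gm19412 on the opposite strand and 149 overlap Zbtb22 on its own. The use of strand in counting was not given in the sources used here, so reads in these bases cannot be told apart.

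**Figure D3:**
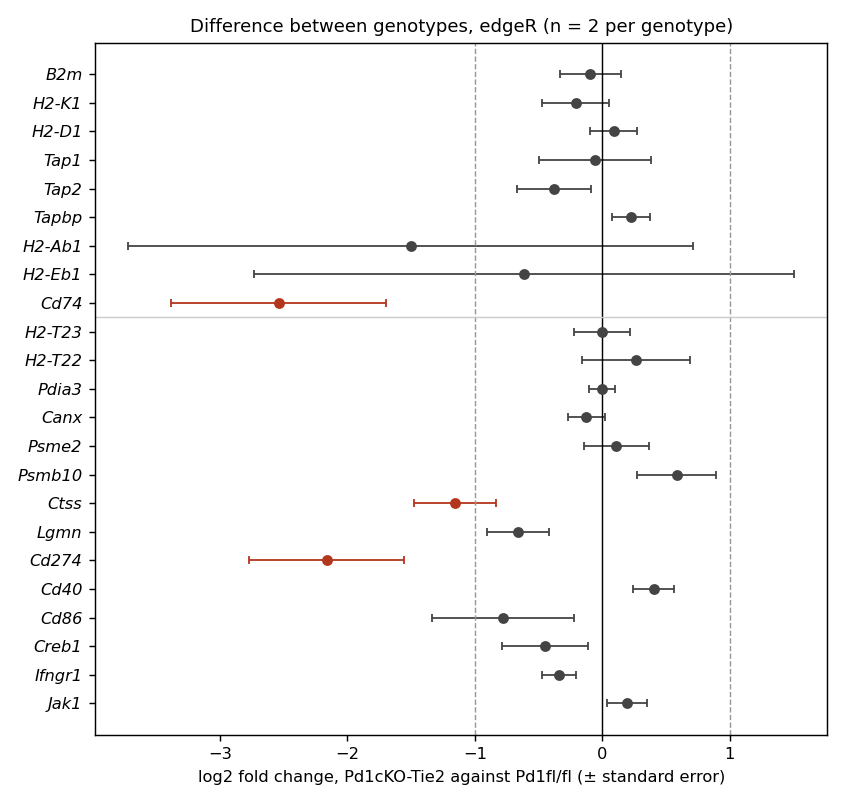
Log2 fold change of Pd1cKO-Tie2 against Pd1fl/fl with its standard error (edgeR, n = 2 libraries per genotype) for the 9 MHC genes above the grey line and for other named antigen presentation genes under it; red marks genes past the criterion and dashed lines a 2-fold change. The class I genes lie within 0.38 of 0 on the log2 scale, Cd74 lies at -2.54, and genes absent or nearly absent from a whole genotype are not drawn.

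The class II chains were near the limit of detection. H2-Ab1 (ENSMUSG00000073421, chr17:34263209-34269418), a class II beta chain, was counted 49 and 5 times in Pd1fl/fl and 31 and 0 times in Pd1cKO-Tie2. The counts of each genotype were far apart, and the groups overlapped, with a log2 fold change of -1.50 (SE 2.22, adjusted p = 1.00 in edgeR). H2-Eb1 (ENSMUSG00000060586, chr17:34305877-34316199), the beta chain of the H2-E molecule, whose alpha chain gene is a pseudogene in C57BL/6 mice, was counted 30 and 10 times in Pd1fl/fl and 43 and 0 times in Pd1cKO-Tie2. Its groups overlapped, with a log2 fold change of -0.61 (SE 2.12, adjusted p = 1.00 in edgeR), and no difference was detectable at this depth. The sum of both chains was 5.48 and 1.06 CPM in Pd1fl/fl and 3.10 and 0 CPM in Pd1cKO-Tie2, a ratio of 0.474 ± 0.809. Without Pd1fl/fl replicate 1 that ratio was 1.47, and without Pd1cKO-Tie2 replicate 1 it was 0.

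Cd74 (ENSMUSG00000024610), the invariant chain gene on chromosome 18, was the one MHC gene past the criterion. It was counted 111 and 487 times in Pd1fl/fl and 58 and 66 times in Pd1cKO-Tie2, or 7.70, 34.3, 2.43 and 4.83 CPM. Both Pd1cKO-Tie2 libraries lay below both Pd1fl/fl libraries, and most of the Pd1fl/fl mean came from replicate 2. The log2 fold change was -2.54 (SE 0.84, adjusted p = 0.735 in edgeR; adjusted p = 0.157 in DESeq2). Without Pd1fl/fl replicate 2 it was -1.08 and without Pd1cKO-Tie2 replicate 1 it was -2.11, both with an unadjusted p over the limit, so the criterion was met only in fits that held both of those libraries. Without Pd1fl/fl replicate 1 it was -3.25. The ratio of Pd1fl/fl replicate 1 to replicate 2 was 0.224 for Cd74 (95% interval 0.183 to 0.276, counting error only), whereas it was 2.95 for H2-Eb1 (1.44 to 6.04). Cd74 and the class II chains therefore did not follow each other within Pd1fl/fl.

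Cell types known for class II were looked for in the same libraries. Microglia and macrophage markers summed to 2475 and 2920 CPM in Pd1fl/fl and to 973 and 2125 CPM in Pd1cKO-Tie2, the order of the 4 libraries being that of Cd74. Of these 16 markers, 9 lay below in both Pd1cKO-Tie2 libraries and none above, beside 18.1% and 17.7% of all tested genes, and 2, Tmem119 and Itgam, passed the criterion as lower, beside 2.61%. Cx3cr1, the fractalkine receptor of microglia, had 37.7 and 233 CPM in Pd1fl/fl and 11.0 and 102 CPM in Pd1cKO-Tie2. Cx3cr1 was thus highest in Pd1fl/fl replicate 2 and lowest in Pd1cKO-Tie2 replicate 1, as Cd74 was, but Pd1cKO-Tie2 replicate 2 was above Pd1fl/fl replicate 1 for Cx3cr1 and below it for Cd74. Ptprc, which encodes CD45, one of the antigens of the sort, had 86.4 and 139 CPM in Pd1fl/fl and 54.6 and 67.9 CPM in Pd1cKO-Tie2, again in the order of Cd74. Of the 16 markers, P2ry12, Csf1r, Aif1, Itgam, C1qa, C1qb and Adgre1 also kept this order, and the others did not. Tmem119, Mrc1, Fcrls, C1qc and Lyve1 were highest in Pd1fl/fl replicate 1, and Lyve1 had 0 counts in Pd1fl/fl replicate 2, where Cd74 peaked. Pf4 and Cd68 were highest in Pd1cKO-Tie2 replicate 2.

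Dendritic cell markers, with 7 of 8 listed, summed to 101 and 110 CPM in Pd1fl/fl and to 57.2 and 118 CPM in Pd1cKO-Tie2. Most of each sum came from Siglech and Zbtb46. Siglech had 73.5 and 89.3 CPM in Pd1fl/fl and 24.8 and 73.8 CPM in Pd1cKO-Tie2. Zbtb46 had 20.7 and 13.0 CPM in Pd1fl/fl and 19.2 and 28.6 CPM in Pd1cKO-Tie2. The sum therefore rests mainly on these genes and does not by itself show dendritic cells. Flt3 was at 0 in 3 libraries and Clec10a, the one dendritic marker past the criterion, was at 0 in both Pd1cKO-Tie2 libraries. Clec9a went the other way, counted 0 and 63 times in Pd1fl/fl against 168 and 186 times in Pd1cKO-Tie2. The median log2 fold change of the 5 tested dendritic markers was 0.50, which is the value of Zbtb46. B cell markers, with 5 of 7 listed and Pax5 and Blk without a row, summed to 15.7 to 21.1 CPM, most of it Cd79b. T and NK cell markers summed to 3.45 to 6.28 CPM, with Cd8a past the criterion as higher. The part of any of these cells in the Cd74 difference was not tested.

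**Figure D4:**
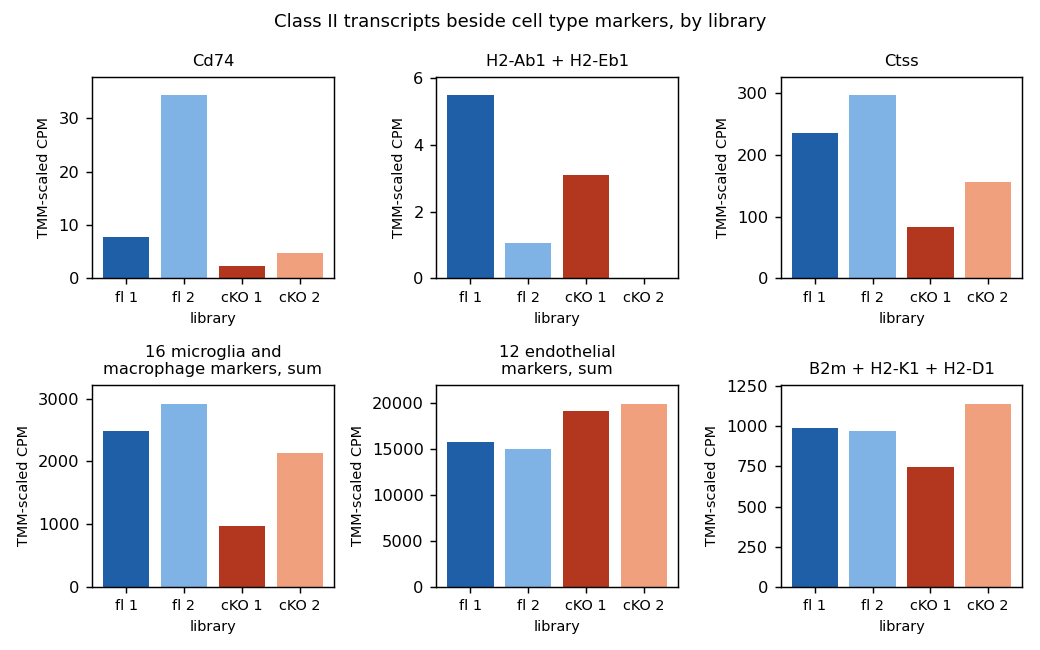
Level in each library (TMM-scaled CPM, bars from 0) of Cd74, of H2-Ab1 and H2-Eb1 together, of Ctss, of summed microglia and macrophage markers, of summed endothelial markers and of the 3 class I chains; blue is Pd1fl/fl and red is Pd1cKO-Tie2, replicates 1 and 2. Cd74 peaks at 34.3 CPM in Pd1fl/fl replicate 2, the class II chains at 5.48 CPM in Pd1fl/fl replicate 1, and the macrophage marker sum is lowest, at 973 CPM, in Pd1cKO-Tie2 replicate 1.

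The other genes of the pathway gave the setting. Of 68 names, which include 2 spellings of 1 gene, 59 had a row and 50 were tested. Of these 50, 1 was higher (H2-Q10) and 5 were lower (H2-Q7, H2-K2, Ctss, Cd274 and Pdcd1lg2) in Pd1cKO-Tie2 by the criterion that 4.02% of all genes passed. The number past the criterion was 2 without either Pd1fl/fl library and 3 without Pd1cKO-Tie2 replicate 1, and it was not drawn from these 6 alone, since Cd86 passed without Pd1fl/fl replicate 1 (log2 fold change -1.34). The libraries of the genotypes did not overlap for 20 of the 50, beside 35.8% of all tested genes, with 6 above (17.7% of all genes) and 14 below (18.1%). Their median log2 fold change was -0.22.

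Among the other class I heavy chains, 10 of 20 were tested. H2-T23, which encodes Qa-1, the ligand of the NKG2A receptor, had 59.4 and 59.6 CPM in Pd1fl/fl and 59.6 and 59.3 CPM in Pd1cKO-Tie2. All 4 libraries were nearly level, which those of H2-K1 and H2-D1 were not. H2-T22 had 32.0 and 28.2 CPM in Pd1fl/fl and 22.98 and 49.4 CPM in Pd1cKO-Tie2, with the spread within Pd1cKO-Tie2 that B2m also had. Of the 50-base stretches in the transcripts, 53.5% of those of H2-T22 and 14.5% of those of H2-T23 also occur in other genes. In addition, 1003 exon bases of H2-T22 overlap A930015D03Rik on the opposite strand, so the counts of H2-T22 are uncertain. H2-K2, annotated as a pseudogene beside H2-K1, had 84 and 38 counts in Pd1fl/fl and 0 counts in both Pd1cKO-Tie2 libraries, which is at least 19.4-fold lower against 3 counts per library, or 12.2-fold from the lower Pd1fl/fl library (adjusted p = 0.735 in edgeR and 0.0194 in DESeq2). The criterion was missed without Pd1fl/fl replicate 1.

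H2-Q7 and H2-Q10 are heavy chain genes of the H2-Q cluster and passed the criterion in opposite directions. H2-Q7 had 23 and 10 counts in Pd1fl/fl and 0 in both Pd1cKO-Tie2 libraries, at least 5.23-fold lower, or 3.21-fold from the lower Pd1fl/fl library. H2-Q10 was not counted in Pd1fl/fl (0 and 0 reads) and was counted 24 and 17 times in Pd1cKO-Tie2, at least 5.32-fold higher. Both passed the criterion in edgeR (adjusted p = 0.738 and adjusted p = 0.743), and neither did so in limma-voom, in edgeR with no filter beyond 1 count or in any fit with a library left out that gave a value. H2-Q10 missed it in DESeq2 as well, and H2-Q7 did not. The 2 genes share 631 stretches of 50 bases, 14.03% and 13.99% of their own. With any other gene, 26.45% of the H2-Q7 and 19.1% of the H2-Q10 stretches are shared, so the counts of both are uncertain.

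Of 6 further genes for peptide loading and trimming, none passed the criterion. Pdia3, the disulfide isomerase ERp57 of the loading complex, had 2062 and 1885 CPM in Pd1fl/fl and 1961 and 1988 CPM in Pd1cKO-Tie2. Canx, the chaperone calnexin, had 1035 and 1048 CPM in Pd1fl/fl and 845 and 1064 CPM in Pd1cKO-Tie2. Both overlapped between genotypes, with Canx lowest in Pd1cKO-Tie2 replicate 1 as the class I chains were.

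The immunoproteasome, which cuts peptides for class I, had no gene past the criterion. Psmb10 had 23.9 and 27.0 CPM in Pd1fl/fl and 32.0 and 44.2 CPM in Pd1cKO-Tie2, above in both libraries with a log2 fold change of 0.58 (SE 0.31, adjusted p = 0.906 in edgeR). Psme2, a subunit of the PA28 activator, had 40.7 and 39.2 CPM in Pd1fl/fl and 40.1 and 46.2 CPM in Pd1cKO-Tie2. Psmb9 has its start site 226 bases from that of Tap1, on the opposite strand. It was counted 116 and 50 times in Pd1fl/fl and 154 and 23 times in Pd1cKO-Tie2. Psmb9 was highest in Pd1fl/fl replicate 1 in CPM and lowest in Pd1cKO-Tie2 replicate 2, the library in which Tap1 was highest. Psmb8 had 7, 2, 5 and 3 counts and was not tested. Psmb9 and Psmb8 were chosen with their values already known.

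Of the genes that serve class II, 9 of 12 names were tested and 8 had a negative log2 fold change, the median over all tested genes being -0.0038. Of the 9, 3 lay below in both Pd1cKO-Tie2 libraries, beside 18.1% of all tested genes, and the others overlapped between genotypes. Ctss, the protease cathepsin S that trims the invariant chain, had 235 and 296 CPM in Pd1fl/fl and 83.8 and 155 CPM in Pd1cKO-Tie2. All Pd1cKO-Tie2 values lay below, with a log2 fold change of -1.15 (SE 0.32, adjusted p = 0.735 in edgeR; adjusted p = 0.0150 in DESeq2). Without Pd1fl/fl replicate 2 it was -0.98, and without Pd1cKO-Tie2 replicate 1 it was -0.76, both under 2-fold. Lgmn, the endosomal protease legumain, had 878 and 1010 CPM in Pd1fl/fl and 457 and 738 CPM in Pd1cKO-Tie2, with a log2 fold change of -0.66 (SE 0.24, adjusted p = 0.753 in edgeR). Lgmn passed the criterion without Pd1cKO-Tie2 replicate 2, at -1.04, and was at -0.35 without replicate 1. Ctss and Lgmn are also abundant in microglia, and their libraries fell in the order of the macrophage marker sum and of Cd74; the part of these cells was not tested.

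The ligands of the deleted receptor belong to the signals that accompany presentation. Cd274, which encodes PD-L1, was counted 174 and 163 times in Pd1fl/fl and 54 and 41 times in Pd1cKO-Tie2. The groups were well apart, with a log2 fold change of -2.16 (SE 0.61, adjusted p = 0.735 in edgeR; adjusted p = 0.286 in DESeq2), and without Pd1fl/fl replicate 1 the unadjusted p missed the limit of the criterion. Of the 50-base stretches of Cd274, 12.4% also occur in other genes, and 511 of its exon bases overlap AC119228.1 on the opposite strand. Reads there could not be assigned with certainty. Pdcd1lg2, which encodes PD-L2, was counted 20 and 17 times in Pd1fl/fl and 1 and 0 times in Pd1cKO-Tie2 (adjusted p = 0.753 in edgeR), and it missed the criterion in DESeq2, in limma-voom, in edgeR with no filter beyond 1 count and with any library left out. Cd40, a costimulatory receptor, had 172 and 152 CPM in Pd1fl/fl and 207 and 223 CPM in Pd1cKO-Tie2, with a log2 fold change of 0.40 (SE 0.16, adjusted p = 0.781 in edgeR). Cd86, a ligand of CD28, had 37.5 and 106 CPM in Pd1fl/fl and 29.3 and 54.8 CPM in Pd1cKO-Tie2 and overlapped.

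The regulators of MHC transcription and the interferon gamma input showed no call. Ciita, the master activator of class II, and Ifng had no row. Nlrc5, the activator of class I, was counted 0 and 2 times in Pd1fl/fl and 27 and 0 times in Pd1cKO-Tie2 and was not tested; both names were picked with that known. Creb1, which binds the cyclic AMP response element, had 56.4 and 91.4 CPM in Pd1fl/fl and 64.7 and 43.5 CPM in Pd1cKO-Tie2. Its groups overlapped. Ifngr1, the ligand-binding chain of the interferon gamma receptor, had 434 and 415 CPM in Pd1fl/fl and 345 and 325 CPM in Pd1cKO-Tie2, with a log2 fold change of -0.34 (SE 0.13, adjusted p = 0.760 in edgeR), short of the 2-fold limit. Jak1, its kinase, had 189 and 195 CPM in Pd1fl/fl and 209 and 231 CPM in Pd1cKO-Tie2, above in both libraries but with a log2 fold change of only 0.19 (SE 0.15, adjusted p = 0.984 in edgeR).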

How the data were processed

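RNA of sorted brain endothelial cells was sequenced on an Illumina HiSeq instrument. The authors deposited 4 tables, each setting 1 Pd1cKO-Tie2 beside 1 Pd1fl/fl library, with whole-number counts of reads per gene. The submitters' processing notes name Bowtie2 2.2.3, TopHat2 2.0.12, HTSeq 0.6.0 and mm9, but the gene positions in the tables are those of GRCm38, 90.35% of 21519 being equal to GENCODE M21. The deposited CPM values, by the authors, are counts over the library total and served only to recover that total. The tables' fold changes and p-values hold the authors' own pairwise comparisons and were not used.

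The tables were joined by gene identifier, 10 broken lines were skipped and 46 symbol entries turned into dates were restored. Every listed gene had a read in both libraries of its table, or 5 or more in one; genes not listed were taken as 0, with 4 reads as the most they could have had. Unlisted reads were at most 0.0107% of a library. Libraries were grouped by the genotype in the labels. They are numbered by column, and the second Pd1cKO-Tie2 column, whose number no label has, was used by its genotype alone.

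Counts were tested in edgeR 4.0.16 (R 4.3.3) with its quasi-likelihood F test, filterByExpr by genotype, TMM scaling and Benjamini-Hochberg adjustment over all 15909 tested genes. The criterion of 2-fold and p of 0.05 or less is that of the study's methods. The common biological coefficient of variation was 0.610. DESeq2 1.42.0, limma-voom (limma 3.58.1), other scalings and filters, and the omission of each library were alternatives. CPM in the text are TMM-scaled, RPKM use the union of GENCODE M21 exons, and ratio intervals use a log-normal form of Poisson counting error. Shared stretches and exon overlaps come from GENCODE M21 and promoters from RefSeq (Python 3.11.15). With 2 libraries against 2, the smallest p of an exact two-sided permutation test of a single value is 0.333. The MHC genes, the pathway list and the marker lists were chosen with earlier results of these data known. Named in the text are all 10 MHC genes, in each pathway subgroup the genes past the criterion and the 2 most abundant, the 2 most abundant markers of a list, and Pdcd1, except 1 regulator that is not reported here; other markers and genes were picked after their values were seen.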

Additional observations from a re-analysis of the deposited data

How the results depend on the processing

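The number of MHC genes past the criterion was 1 under every other test, scaling and filter and 0 to 1 when a library was left out, being 0 without Pd1fl/fl replicate 2 or Pd1cKO-Tie2 replicate 1. The number of other antigen presentation genes fell from 6 to 3 with no filter and to 2 with at least 10 counts in every library, and was 2 to 6 with a library left out. Genes absent from a library cannot enter the latter filter, so H2-Ab1 and H2-Eb1 gave no value there. Over all genes the count was 480 to 936 across the other settings and 689 to 877 with a library left out.

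With a library left out, the log2 fold change ranged from -0.48 to 0.22 for B2m, -0.52 to 0.065 for H2-K1, -0.13 to 0.29 for H2-D1 and -0.63 to 0.37 for Tap1, reversing without Pd1cKO-Tie2 replicate 1 (B2m, H2-K1, Tap1) or replicate 2 (H2-D1). It ranged from -7.73 to 0.88 for H2-Ab1, -7.30 to 0.37 for H2-Eb1 and -3.25 to -1.08 for Cd74, and the other tested MHC genes, Tap2 and Tapbp, kept their direction. Of the other genes, H2-T22 ranged from -0.39 to 0.72, Canx from -0.30 to 0.041, Cd86 from -1.34 to 0.17, H2-T23 from -0.00033 to 0.0079 and Pdia3 from -0.059 to 0.070. H2-T23 was 0.0062 with no filter, and Pdia3 was -0.0012 with RLE, -0.0049 with upper quartile and -0.061 with library size scaling and -0.0034 with at least 10 counts, all near 0. The ratio of summed levels ranged from 0 to 1.47 for the class II chains and from 0.106 to 0.472 for Cd74. The causes were not tested.

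No paired analysis was possible because the labels of the genotypes share only 1 replicate number. With 2 libraries per genotype, a p that misses the threshold does not show that levels were equal.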
